A study of Homo sapiens with 8 samples.

Results

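The 10 genes described here encode the YAP/TEAD arm of the Hippo pathway, chosen by name: the coactivators YAP1 and WWTR1 (TAZ), the DNA-binding factors TEAD1, TEAD3 and TEAD4, the target genes CCN1, CCN2 and ANKRD1, and the feedback regulators AMOTL2 and LATS2. All 10 were among the 78932 gene identifiers counted, and 9 of them passed the filter on low counts that left 12618 genes for testing. They were measured by 3′ mRNA sequencing, which reads mainly the end of polyadenylated transcripts, in HCT116 cells, a human colorectal carcinoma line. The line carries a dTAG-NUDT21 allele, in which NUDT21 is fused to a tag that lets a small molecule send the protein for degradation. NUDT21 is the subunit of cleavage factor Im that binds UGUA in the RNA upstream of poly(A) sites. One group of 4 libraries received DMSO, the solvent, and the other group of 4 received dTAGV1, the degrader. Both groups also received JTE-607, an inhibitor of the endonuclease CPSF3 that cuts pre-mRNA at the poly(A) site, so every level below is a level under that inhibitor. Cells without JTE-607, the doses, the times and whether the line is 1 clone were not given in the sources used here, nor was whether the 4 libraries of a group came from separate cultures, so p-values measure the spread between these libraries, which may be technical.

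In the Hippo pathway a kinase cascade phosphorylates YAP and TAZ and keeps them in the cytoplasm. When the cascade is low, YAP and TAZ enter the nucleus and bind TEAD factors, which recognise the sequence GGAATG, and switch on genes for matrix proteins, growth and cytoskeleton. Several of those targets, LATS2 and AMOTL2 among them, restrain YAP in turn, which makes the pathway a feedback loop. In epithelial cells it is known for coupling growth to cell density and mechanical tension.

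Sense-strand counts assigned to genes came to between 3447842 and 4291256 per library. Values are given as counts scaled to 1000000 (CPM) of the effective library size, and fold changes as log2 of dTAGV1 over DMSO from edgeR's quasi-likelihood test with Benjamini-Hochberg adjustment over all genes tested. A gene is called higher or lower at an adjusted p under 0.05. NUDT21 itself, whose transcript was not the direct target of the degrader, was at 32.2 ± 2.81 CPM in DMSO and 8.25 ± 2.62 CPM in dTAGV1 (SD, n = 4 each), a log2 change of -1.95. Of the epithelial markers, EPCAM, KRT8, KRT18, KRT19, CDH1 and CDX2 were detected, at 34.7 to 786 CPM in DMSO; EPCAM was higher and KRT18 and KRT19 were lower with dTAGV1. CEACAM5 and VIL1 had group means below 1 CPM, as did the leukocyte marker PTPRC and the endothelial marker PECAM1. Of the mesenchymal markers, VIM and COL1A1 were at 11.7 and 17.3 CPM in DMSO and did not pass the test, and COL1A2 and PDGFRB had group means below 1 CPM. Much of the transcriptome differed between the groups: 7302 of the 12618 genes tested passed the threshold, 57.9%, of which 3710 were higher (29.4% of those tested) and 3592 lower (28.5%) in dTAGV1.

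The pathway genes moved in both directions. WWTR1, CCN1, LATS2 and AMOTL2 were higher with dTAGV1, TEAD1 and YAP1 were lower, and TEAD3, TEAD4 and CCN2 did not pass the test. That is 6 of 9 tested, 66.7%, beside 57.9% of all genes tested, a share near the background. The median log2 change over the 9 was 0.24, beside 0.01 over all genes tested, and the median size of change was 0.45 beside 0.42. The 4 libraries of one group did not overlap the 4 of the other for WWTR1, CCN1, LATS2 and TEAD1, 4 of 9, beside 50.9% of all genes tested (25.8% with dTAGV1 the higher group and 25.1% with dTAGV1 the lower).

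**Figure D1:**
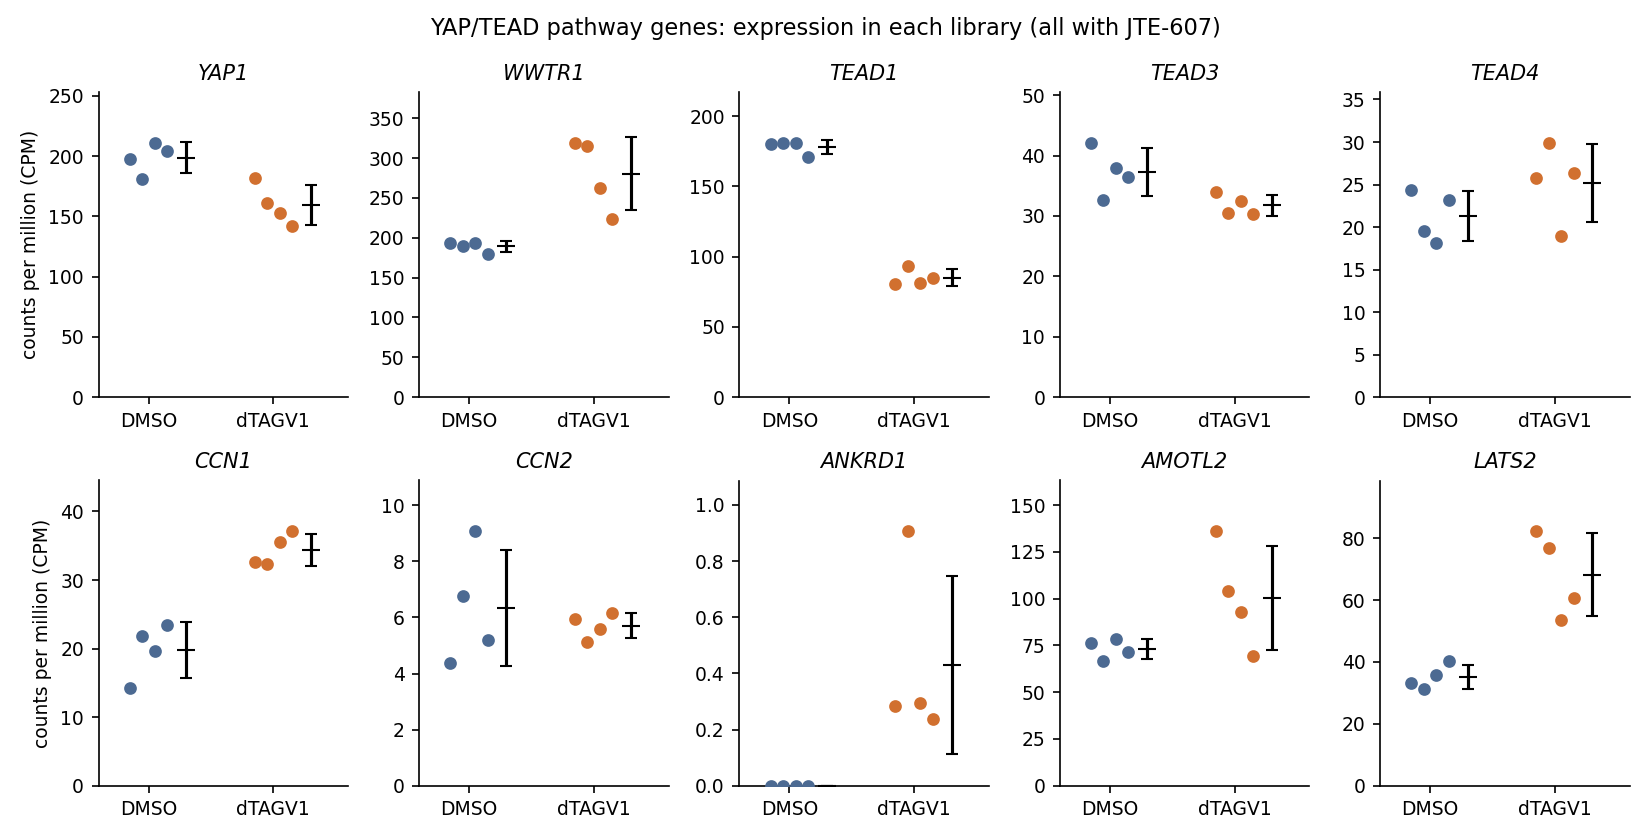
Level of each of the 10 genes in every library, in CPM on a linear axis with its own range per panel. Points are single libraries, and bars give the mean ± SD of the 4 DMSO and the 4 dTAGV1 libraries. TEAD1 is separated downward, from 171 CPM or more to 93.6 CPM or less, and WWTR1, CCN1 and LATS2 are separated upward, while the 2 groups of YAP1 and AMOTL2 overlap.

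YAP1 and WWTR1 encode the paired coactivators YAP and TAZ, which have no DNA-binding domain and act through TEAD factors. Their transcripts changed in opposite directions. YAP1 (ENSG00000137693, GRCh38 chr11:102110461-102233423, plus strand) was at 198, 181, 211 and 204 CPM in the DMSO libraries and at 182, 161, 153 and 142 CPM in the dTAGV1 libraries. The ranges touched at 1 point only, where the highest dTAGV1 library (182 CPM) lay just above the lowest DMSO library (181 CPM). The mean was 198 ± 12.9 CPM in DMSO and 160 ± 16.9 CPM in dTAGV1 (SD, n = 4 each), and edgeR gave a log2 change of -0.31 with a standard error of 0.08 and an adjusted p of 0.00176.

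WWTR1 (ENSG00000018408, GRCh38 chr3:149517235-149736714, minus strand) was at 194, 189, 193 and 180 CPM in DMSO and at 319, 315, 263 and 223 CPM in dTAGV1. Every dTAGV1 library lay above every DMSO library, and the dTAGV1 libraries spread over a wider range. Its mean level, 189 ± 6.71 CPM in DMSO, rose to 280 ± 45.7 CPM in dTAGV1 (± SD over 4 libraries), with a log2 change of 0.57 with a standard error of 0.09 and an edgeR adjusted p of 1.61e-05. Because one fell and the other rose, the balance between them shifted. YAP1 made up 50.5, 48.9, 52.2 and 53.2% of the summed YAP1 and WWTR1 level in DMSO and 36.3, 33.8, 36.9 and 38.8% in dTAGV1. The mean share was 51.2 ± 1.89% against 36.5 ± 2.04% (SD over 4 libraries), which differ by -14.7 percentage points with no overlap, and an exact two-sided permutation test gave p = 0.0286, the smallest that 4 against 4 allows, and 0.0286 after adjustment over the 3 shares tested in this way. All 3 shares use the same counts as the single-gene tests, so their p-values are not separate evidence. The sum of the pair was 369 to 404 CPM in DMSO and 365 to 501 CPM in dTAGV1, with overlapping ranges.

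TEAD1, TEAD3 and TEAD4 encode DNA-binding factors with the same domain layout, through which YAP and TAZ reach their targets. TEAD1, the most abundant of the 3, fell furthest among the 9 tested genes. TEAD1 (ENSG00000187079, GRCh38 chr11:12674591-12944483, plus strand) was at 180, 181, 181 and 171 CPM in DMSO and at 80.2, 93.6, 81.0 and 85.1 CPM in dTAGV1. The groups were far apart in relation to their spread. The mean fell from 178 ± 4.92 CPM to 85.0 ± 6.15 CPM (SD over 4 libraries), 0.477 times the DMSO level, with a log2 change of -1.07, a standard error of 0.08 and an edgeR adjusted p of 2.25e-11. Of all genes tested, 8.27% had a log2 change at or below that of TEAD1.

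TEAD3 (ENSG00000007866, GRCh38 chr6:35473597-35497076, minus strand) was at 42.1, 32.6, 37.9 and 36.4 CPM in DMSO and at 34.0, 30.5, 32.4 and 30.3 CPM in dTAGV1. These ranges overlapped, and the log2 change of -0.23, with a 95% interval from -0.47 to 0.02, did not pass the threshold (edgeR adjusted p = 0.102). Scaling by library size alone, in place of the trimmed mean of M values (TMM), gave a log2 change of -0.30 and an adjusted p of 0.0325. TEAD4 (ENSG00000197905, GRCh38 chr12:2959330-3040673, plus strand) was at 24.3, 19.5, 18.1 and 23.2 CPM in DMSO and at 25.8, 29.9, 18.9 and 26.3 CPM in dTAGV1. The TEAD4 ranges overlapped as well, with a log2 change of 0.24, a 95% interval from -0.07 to 0.56 and an edgeR adjusted p of 0.173.

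Among the 3 TEAD genes, TEAD1 supplied 73.0, 77.6, 76.4 and 74.1% of the summed level in DMSO and 57.3, 60.8, 61.2 and 60.1% in dTAGV1. TEAD1 remained the largest share in all 8 libraries, although a smaller one with dTAGV1. The share was 75.3 ± 2.09% against 59.9 ± 1.78% (SD over 4 libraries), which differ by -15.4 points (exact two-sided permutation p = 0.0286, adjusted 0.0286). The TEAD3 share was 15.7 ± 1.28% in DMSO and 22.5 ± 2.29% in dTAGV1, and that of TEAD4 was 9.0 ± 1.18% and 17.7 ± 2.31%. Summed over the 3 genes, the level was 230 to 246 CPM in DMSO and 132 to 154 CPM in dTAGV1, and the ranges did not overlap.

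**Figure D2:**
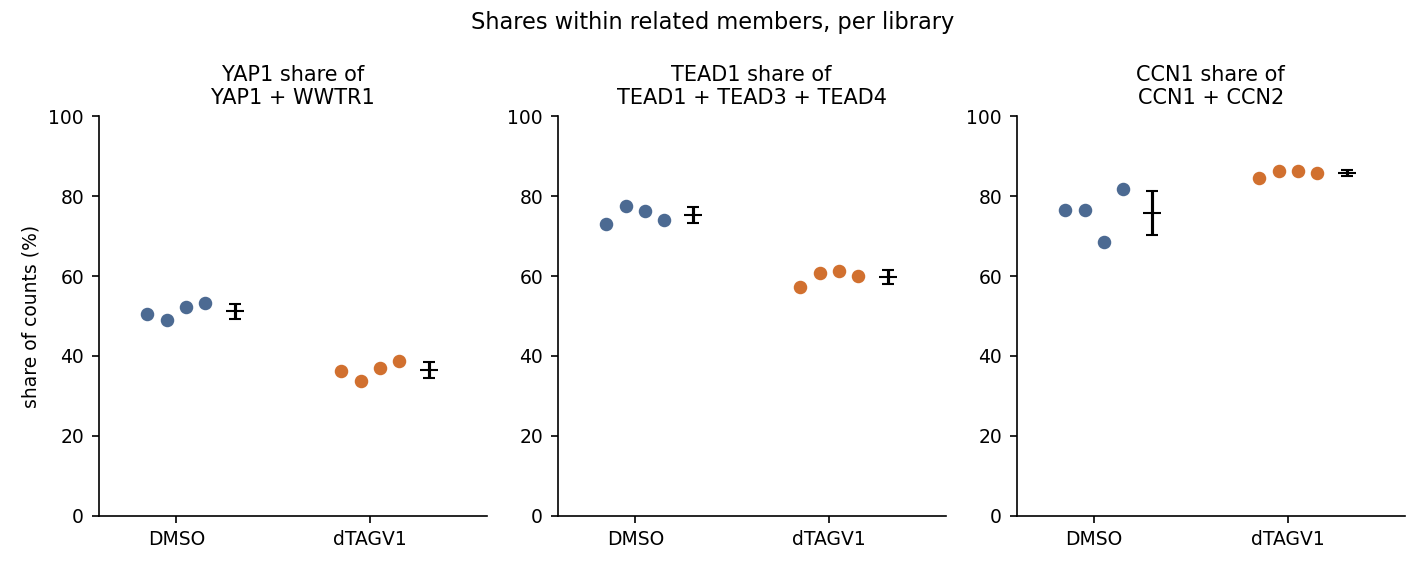
Share of YAP1 in YAP1 plus WWTR1, of TEAD1 in TEAD1, TEAD3 and TEAD4, and of CCN1 in CCN1 plus CCN2, in percent of the summed CPM; points are single libraries and bars the mean ± SD (n = 4 per group). The YAP1 share goes from 51.2% to 36.5%, the TEAD1 share from 75.3% to 59.9% and the CCN1 share from 75.8% to 85.8%, with no overlap between groups in any of them.

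CCN1 (CYR61) and CCN2 (CTGF) encode secreted matricellular proteins, and ANKRD1 a muscle and nuclear ankyrin-repeat protein. All 3 are widely used as readouts of YAP and TEAD activity. They did not move as a unit here. CCN1 (ENSG00000142871, GRCh38 chr1:85580761-85583962, plus strand) was at 14.2, 21.9, 19.7 and 23.5 CPM in DMSO and at 32.6, 32.3, 35.6 and 37.1 CPM in dTAGV1. No dTAGV1 library came down to the DMSO range. Its mean level, 19.8 ± 4.06 CPM in DMSO, rose to 34.4 ± 2.35 CPM in dTAGV1 (± SD over 4 libraries), with a log2 change of 0.79 with a standard error of 0.14 and an edgeR adjusted p of 3.68e-05.

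CCN2 (ENSG00000118523, GRCh38 chr6:131948176-131951373, minus strand) was much lower, at 4.37, 6.75, 9.07 and 5.19 CPM in DMSO and at 5.95, 5.14, 5.6 and 6.15 CPM in dTAGV1. The dTAGV1 values lay inside the DMSO range, and the underlying counts were 16 to 34 per DMSO library and 17 to 26 per dTAGV1 library. The log2 change of -0.15 had a 95% interval from -0.68 to 0.38 (edgeR adjusted p = 0.644), so a rise of the size seen for CCN1 lay outside the interval, while changes within it could not be resolved at this depth. Without DMSO replicate 3, the library with the highest CCN2 level, the log2 change was 0.06 with an adjusted p of 0.862.

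CCN1 made up 76.5, 76.5, 68.5 and 81.9% of the summed CCN1 and CCN2 level in DMSO and 84.6, 86.3, 86.4 and 85.8% in dTAGV1. The difference was 9.93 percentage points with no overlap, from 75.8 ± 5.51% to 85.8 ± 0.851% (SD, n = 4 each; exact two-sided permutation p = 0.0286, adjusted 0.0286). Leaving out dTAGV1 replicate 1, 2, 3 or 4 gave differences of 10.3, 9.75, 9.71 and 9.92 points, each with an adjusted exact p of 0.0571.

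ANKRD1 (ENSG00000148677, GRCh38 chr10:90912096-90921276, minus strand) had 0 sense counts in every DMSO library and 1, 3, 1 and 1 in the dTAGV1 libraries. It was not detected with DMSO and barely detected with dTAGV1, and it did not pass the count filter, so it was not among the genes tested. With no filter at all it reached an adjusted p of 0.0495 in edgeR, on 6 counts in all; a fitted fold change against a group at 0 depends on the prior count, and none is given. A total of 0 among 15308828 counts in the DMSO libraries allows a level of up to 0.196 CPM (3 counts over the group, counting error only), and the 6 counts among 14938519 in dTAGV1 correspond to 0.402 CPM. Counts on the strand opposite to ANKRD1 were above the sense counts in all 8 libraries, at 1 to 4 per DMSO library and 4 to 5 per dTAGV1 library.

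The CCN2 and YAP1 promoters are shown as examples with the TEAD motif, in stretches before the annotated start and outside the gene's exons. Other genes of the 10 held the motif too, as given below. The CCN2 transcript did not pass the test and YAP1 was lower. Of the 10 genes, 7 had a promoter window of 250 bases before to 50 bases after the annotated start (RefSeq, GRCh38.p14): YAP1, WWTR1, TEAD3, CCN2, ANKRD1, AMOTL2 and LATS2. The motif was searched as GGAATG on both strands (CATTCC on the other), and capitals mark the matches in these stretches, which are written 5′ to 3′ on the gene's strand, chr6:131951442-131951561 for CCN2 and chr11:102110265-102110310 for YAP1.
CCN2: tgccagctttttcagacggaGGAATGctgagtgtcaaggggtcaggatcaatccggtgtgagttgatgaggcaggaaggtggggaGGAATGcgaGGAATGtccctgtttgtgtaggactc
YAP1: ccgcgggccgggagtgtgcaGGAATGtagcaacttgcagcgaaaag

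The CCN2 promoter held 3 matches, starting at -169, -104 and -95 from the transcription start. At least 1 match was found in 14% of 35116 RefSeq windows of the same length and at least 3 in 0.128%. ANKRD1 held 2 matches, at -220 and -128, with an AP-1 motif (TGANTCA, in 7.71% of windows) at -195. YAP1 held 1 at -162, LATS2 1 at 9 bases after the start, and AMOTL2 1 in one of its 2 windows. The windows of TEAD3 and WWTR1 held none, which says only that these letters are absent there. The 2 genes with most matches, CCN2 and ANKRD1, were also the 2 lowest in level. A match is a description of the sequence and not a site shown to be bound.

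AMOTL2 and LATS2 are targets of YAP that feed back on it: angiomotin-like 2 binds YAP in the cytoplasm and at junctions, and the LATS2 kinase phosphorylates YAP and TAZ. LATS2 (ENSG00000150457, GRCh38 chr13:20973032-21061547, minus strand) was at 33.3, 31.4, 35.8 and 40.3 CPM in DMSO and at 82.2, 76.7, 53.6 and 60.5 CPM in dTAGV1. Every dTAGV1 library lay above every DMSO library. The mean rose from 35.2 ± 3.86 CPM to 68.3 ± 13.4 CPM (SD over 4 libraries), 1.94 times the DMSO level, with a log2 change of 0.95, a standard error of 0.13 and an edgeR adjusted p of 8.13e-07. This was the largest rise among the 9 tested genes of the pathway, and 91.9% of all genes tested had a log2 change at or below it.

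AMOTL2 (ENSG00000114019, GRCh38 chr3:134355874-134375479, minus strand) was at 76.2, 66.6, 78.7 and 71.5 CPM in DMSO and at 136, 104, 92.8 and 69.3 CPM in dTAGV1. dTAGV1 replicate 4 fell within the DMSO range and the other 3 lay above it. The mean was 73.2 ± 5.37 CPM in DMSO and 101 ± 27.8 CPM in dTAGV1 (SD over 4 libraries), with a log2 change of 0.45 with a standard error of 0.17 and an edgeR adjusted p of 0.0362. The call was lost in 7 of 15 alternatives. It was lost with scaling by library size (log2 change 0.38, adjusted p = 0.0648) and with counts taken from either strand (0.42, adjusted p = 0.0532). It was also lost without DMSO replicate 1 (adjusted p = 0.0547), DMSO replicate 2 (0.0700), DMSO replicate 4 (0.0765) and dTAGV1 replicate 2 (0.0841), and without dTAGV1 replicate 1 the log2 change was 0.26 (adjusted p = 0.0505). The share of reads assigned to no gene was 62.8, 62.8, 59.0 and 56.7% in dTAGV1 replicates 1 to 4, and 58.0 to 59.2% in DMSO. The 2 dTAGV1 libraries at 62.8% also had the highest AMOTL2, WWTR1, YAP1 and LATS2 levels of that group. The part of that share in these results was not tested. AMOTL2 also shares 187 exon bases on its own strand with the pseudogene RPL39P5, which had 0 counts in all 8 libraries.

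**Figure D3:**
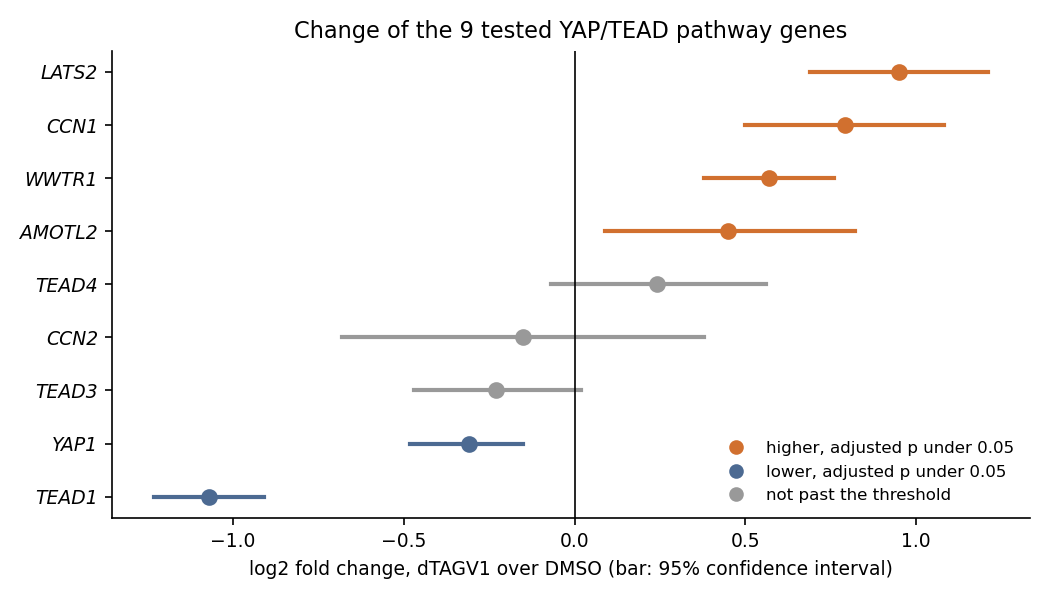
log2 change of the 9 tested genes, dTAGV1 over DMSO, ordered by that change, with the 95% interval of the edgeR fit. Colours mark genes called higher, lower or not called at an adjusted p under 0.05. LATS2 (0.95), CCN1 (0.79) and WWTR1 (0.57) lie to the right and TEAD1 (-1.07) and YAP1 (-0.31) to the left, while the intervals of TEAD3, TEAD4 and CCN2 cross 0.

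Because the kit reads 1 stretch near each transcript's end, counts are not proportional to transcript length, and CPM can be compared between genes as a level of transcript ends, apart from differences in how well each end is captured. In DMSO, YAP1, WWTR1 and TEAD1 formed the top at 198, 189 and 178 CPM, and neighbours in that order overlapped. AMOTL2 followed at 73.2 CPM, apart from those above and below. TEAD3 and LATS2 overlapped at 37.2 and 35.2 CPM, TEAD4 and CCN1 overlapped at 21.3 and 19.8 CPM, and CCN2 stood below them at 6.35 CPM. With dTAGV1, WWTR1 led at 280 CPM, apart from YAP1 at 160 CPM. AMOTL2, TEAD1 and LATS2 came next at 101, 85.0 and 68.3 CPM, with neighbours overlapping, then CCN1 at 34.4 and TEAD3 at 31.8 CPM, also overlapping, TEAD4 at 25.2 CPM and CCN2 at 5.71 CPM.

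Stretches near the annotated transcript ends are shown because cleavage factor Im, the complex of NUDT21, is known to bind UGUA upstream of the poly(A) signal. Each stretch closes with a copy of AATAAA or ATTAAA, forms of that signal. A stretch holds at most 30 bases, so a TGTA outside it is not shown. The stretches come from the 3′-most coding transcript of each gene (GENCODE 29, GRCh38, gene strand, with T for U), and capitals mark TGTA and the copy of AATAAA or ATTAAA nearest the end (the AMOTL2 stretch holds a further copy of ATTAAA, left in lower case). The capital copy of AMOTL2 starts 10 bases before the end, and which copy serves as the signal was not tested. WWTR1 is read at chr3:149517251-149517267, CCN1 at chr1:85583918-85583935, CCN2 at chr6:131948196-131948225, AMOTL2 at chr3:134355878-134355907 and LATS2 at chr13:20973050-20973079.
WWTR1: TGTAtaagaaaAATAAA
CCN1: TGTAtgaagcacAATAAA
CCN2: catgtttgcacctttctagttgaaAATAAA
AMOTL2: cagtattttaattaaaaaaaaataATTAAA
LATS2: aagcttctactggcacaatttattATTAAA

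Of the 10 genes, 8 had at least 1 TGTA in the last 100 bases, beside 55.5% of 10637 tested genes with a coding transcript end. The exceptions were TEAD1 and LATS2, which had the largest fall and the largest rise among the 9 tested. A link between TGTA and the changes was not tested. ANKRD1 held 6 copies, CCN1 and AMOTL2 held 2 each, and YAP1, WWTR1, TEAD3, TEAD4 and CCN2 held 1 each. AATAAA stood in the last 40 bases of WWTR1, TEAD4, CCN1, CCN2 and ANKRD1, and in 62.2% of all such genes, while TEAD3, AMOTL2 and LATS2 had ATTAAA and neither was found for YAP1 and TEAD1. These are ends in the annotation, and the count tables do not show which end each read came from.

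Counting was strand-specific, and the counts of WWTR1 and YAP1 are given by strand here. WWTR1 had 74 to 101 counts per library on the opposite strand in DMSO and 46 to 68 in dTAGV1, the only gene of the 10 to pass the filter there. While the sense strand rose, the opposite strand fell by 0.68 on the log2 scale (standard error 0.16, edgeR adjusted p = 0.000575). Of 3324 genes tested on the opposite strand, 48.4% passed the threshold and 24.5% were lower. WWTR1-AS1, an antisense gene that shares 795 exon bases with WWTR1, had 0 to 3 counts per library in its own sense orientation. WWTR1-IT1, which lies in an intron on the same strand as WWTR1, had 12 to 27 counts per library and a log2 change of 0.16 (edgeR adjusted p = 0.626). For YAP1, counting without regard to strand kept 41.3 to 46.3% of the sense count in DMSO and 40.3 to 51.8% in dTAGV1, and the antisense gene AP000942.2 shares 628 exon bases with it. Counts on the strand opposite to YAP1 were 0 to 2 per library, and those of AP000942.2 were 0 to 1. YAP1 was lower in that count too, by 0.30 on the log2 scale (edgeR adjusted p = 0.00671).

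Around these genes, 4 further groups of the pathway were examined, listed by name with earlier results of these data known. The Hippo kinases and upstream regulators, which restrain YAP, split in both directions. Of 15 tested of 16, 4 were higher, 6 were lower and 5 did not pass (66.7% called, median log2 change 0.01). LATS1, the partner kinase of LATS2, rose from 28.0 ± 1.43 to 40.1 ± 2.2 CPM (SD over 4 libraries), a smaller log2 change (0.52, edgeR adjusted p = 0.000323) than that of LATS2. TAOK3, an upstream kinase, and WWC2, a scaffold of the KIBRA family, were higher by 0.63 and 0.59 on the log2 scale. The LATS cofactor MOB1B was lower, from 28.4 ± 2.21 to 17.3 ± 2.54 CPM (SD, n = 4 each; log2 change -0.71), as were WWC1, the KIBRA gene (-0.52), and SAV1, the scaffold of the upstream kinases (-0.42). Paralogs thus went opposite ways in the WWC family, WWC2 higher and WWC1 lower.

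Among 11 tested of 12 junctional and nuclear partners, 5 were higher, 1 was lower and 5 did not pass (54.5% called, median 0.32). VGLL4, a cofactor that competes with YAP for TEAD, rose from 57.8 ± 4.6 to 86.9 ± 9.69 CPM (SD, n = 4 each; log2 change 0.59, edgeR adjusted p = 1.33e-05). AJUBA, a LIM protein that binds LATS kinases, and TJP1, a tight-junction scaffold, were higher by 0.47 and 0.42. TEAD2, the remaining member of the TEAD family, was lower, at 37.1 ± 3.79 CPM in DMSO and 26.7 ± 2.62 CPM in dTAGV1 (SD, n = 4 each; log2 change -0.48, edgeR adjusted p = 0.00184). The TEAD family therefore had 2 genes lower, TEAD1 and TEAD2, and 2 not past the threshold. TEAD2 kept its call in all 14 alternatives in which it was tested. With counts taken from either strand it was not among the genes tested.

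Other YAP and TEAD target genes changed in both directions. Of 13 tested of 16, 5 were higher, 4 were lower and 4 did not pass (69.2% called, median 0.17, median size of change 0.76). The higher ones included CRIM1, a transmembrane regulator of BMP signalling, from 38.9 ± 1.98 to 87.2 ± 20.6 CPM (SD, n = 4 each; log2 change 1.17). GADD45A, a stress-response gene that other pathways induce too, rose from 233 ± 21.6 to 482 ± 37.7 CPM (SD, n = 4 each; log2 change 1.05), and the growth factor TGFB2 was higher by 0.80. ARHGEF17 fell from 29.3 ± 3.94 to 8.88 ± 2.33 CPM (SD, n = 4 each; log2 change -1.71). The receptor tyrosine kinase AXL went from 66.2 ± 1.87 to 32.9 ± 4.85 CPM (SD, n = 4 each; edgeR adjusted p = 2.18e-08), and FJX1, a secreted protein, was lower by 1.19 at a level below 4 CPM.

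The SRF and MRTF cytoskeletal group held the regulators SRF, MRTFA and MRTFB beside their targets, whose programme shares genes with that of YAP. This group had 4 higher, 7 lower and 9 not past the threshold among 20 tested of 22 (55.0% called, median -0.24). TAGLN, FHL2 and MYH9 were higher, by 0.63, 0.50 and 0.34. MRTFB, a coactivator of SRF, was lower, from 25.7 ± 0.684 to 12.1 ± 2.56 CPM (SD, n = 4 each; log2 change -1.08), and the tropomyosin gene TPM2 from 181 ± 5.59 to 96.1 ± 5.66 CPM (SD, n = 4 each; log2 change -0.92). TAGLN2 was lower by 0.64. No set of genes was tested as a set, and all 4 shares of called genes stand beside 57.9% for all genes tested.

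**Figure D4:**
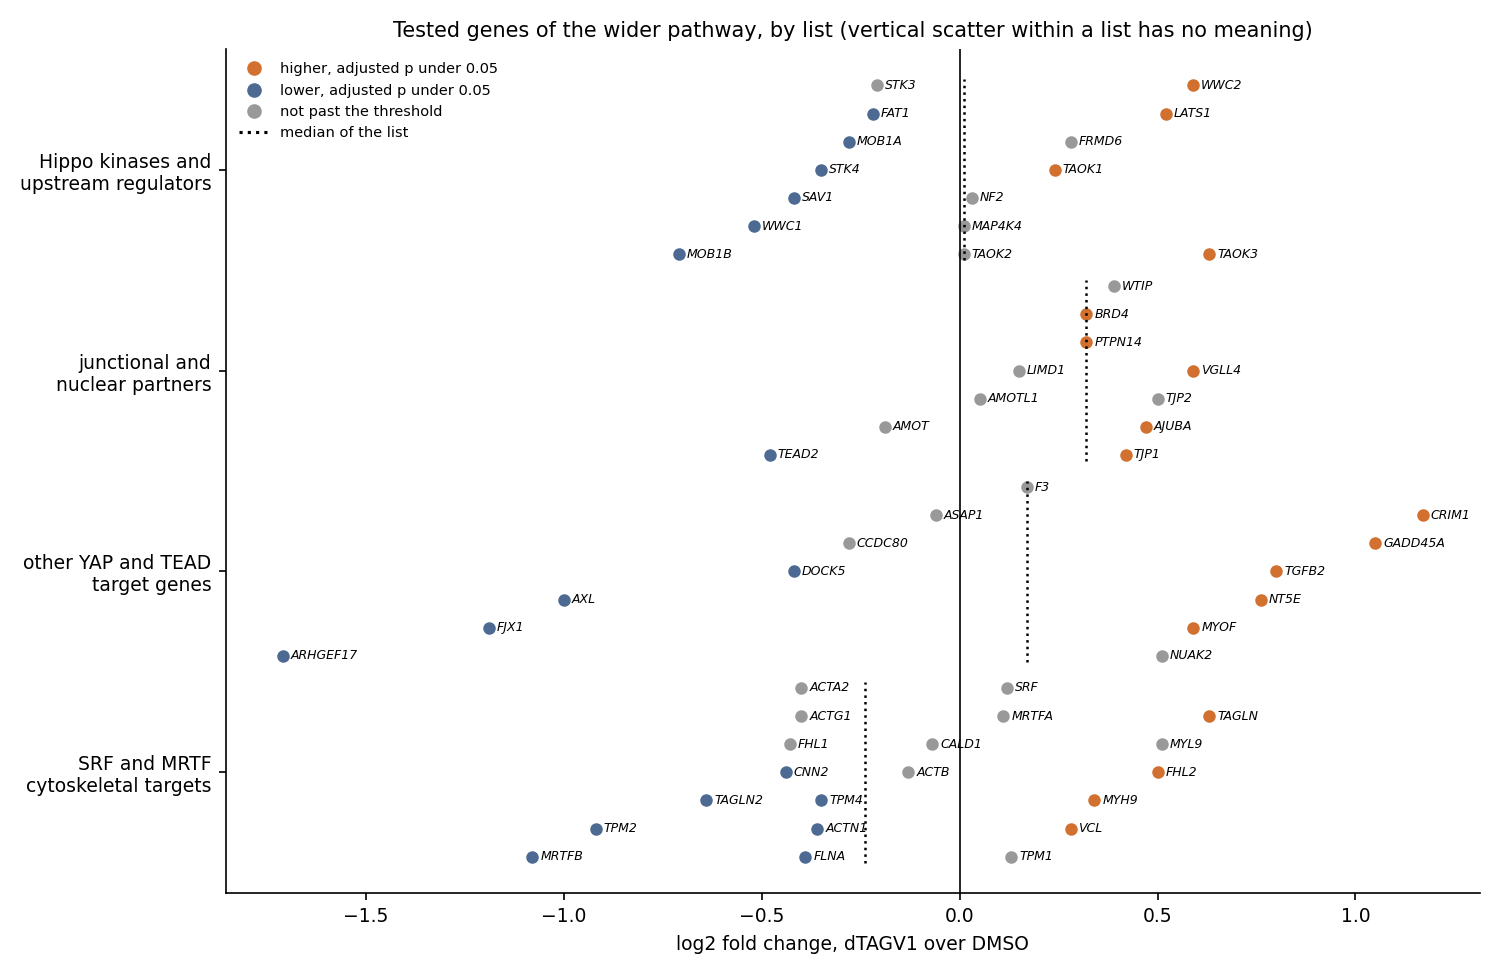
log2 change, dTAGV1 over DMSO, of each tested gene in the 4 wider groups, with the vertical dotted line at the median of each group; vertical position within a group carries no value. Every group spans 0: the medians are 0.01, 0.32, 0.17 and -0.24 from top to bottom, and the points reach from -1.71 (ARHGEF17) to 1.17 (CRIM1).

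The genes whose profile over the 8 libraries was most like that of TEAD1 and LATS2, the genes with the largest fall and rise among the 9 tested of the 10, were found by the root mean square difference of centred log2 CPM among 9051 genes. For TEAD1 these were the homeobox gene HOXB5 (difference 0.0461, log2 change -1.05), the paraoxonase gene PON2 (0.0532, -1.03) and the creatine kinase gene CKB (0.0618, -1.13). For LATS2 they were the gamma-secretase subunit NCSTN (0.118, 1.05), EDEM2 of the glycoprotein degradation pathway in the endoplasmic reticulum (0.13, 0.84) and ZMIZ2, a transcriptional coregulator (0.137, 1.02).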

How the data were processed

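The deposited files give counts of reads per gene for each of 8 libraries, unstranded and for each strand, made by the authors from Lexogen QuantSeq FWD V2 libraries, per the labels' protocols. FastQC, fastp, STAR, HTSeq and DESeq2 and the build GRCh38 are named in the submitters' processing notes, and versions and annotation were not given in the sources used here. The deposited count for the sense strand was used, since it exceeded the opposite strand 8.28 to 8.48 times. Library totals were 8649238 to 9977205 reads, of which 56.7 to 62.8% lay in the 4 totals that name no gene and were left out.

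Genes were filtered with filterByExpr, scaled by TMM and tested with edgeR's quasi-likelihood fit (version 4.0.16), dTAGV1 against DMSO, with no covariate. Alternatives were other scalings (DESeq2's size factors among them), DESeq2, no filter, a mean of at least 100 counts, either-strand counts, a replicate block and each library left out. Counts were simulated for the 12618 genes, and the 12425 that passed the filter again were tested. Of these, 66 were changed by 0.5, 67 by 1.0 and 67 by 2.0 on the log2 scale. The changed genes were drawn only from those above a minimum level. edgeR recovered 54.55%, 83.58% and 98.51% of them, with 9 false calls. In the data 57.9% of genes were called, a far larger share than was changed in the simulation, so these rates need not hold there. Same-numbered libraries did not pair (correlations of deviations 0.131, -0.0176, 0.0232 and 0.034). Symbols came from the names table (42179 of 78932 identifiers), coordinates from GENCODE 29, and promoters from RefSeq. The named genes of each wider group were those called with the 3 largest changes in each direction. The members and lists were chosen with earlier results of these data known.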

Additional observations from a re-analysis of the deposited data

Results flagged for a closer look

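TEAD1 in DMSO replicate 4 stood apart from the other 3 DMSO libraries, at 171 CPM against 180, 181 and 181 CPM. The gap to its neighbour was 0.846 of the group's range, above Dixon's critical value for 4 samples, a flag that chance raises in about 1 in 20 groups. In all, 24 groups were examined in this way. The library lay far above all dTAGV1 libraries.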

How the results depend on the processing

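WWTR1, CCN1, LATS2, TEAD1 and YAP1 kept their direction and their call in all 15 alternatives, with log2 changes of 0.49 to 0.65, 0.66 to 0.87, 0.84 to 1.04, -1.14 to -1.05 and -0.39 to -0.28. Over the 9 tested genes, 124 of 133 alternative values kept both their direction and their side of the threshold. AMOTL2 lost its call in 7 (log2 change 0.26 to 0.59 over its alternatives, adjusted p 4.07e-05 to 0.0841), TEAD3 gained one with library size scaling (-0.30), and CCN2 changed sign without DMSO replicate 3 (0.06; -0.29 to 0.06 over the libraries left out in turn). The cause was not tested. Requiring a mean of at least 100 counts left 4120 genes called of 6369 tested, beside 7302 of 12618, and 444 on the opposite strand beside 1610: fewer genes were tested. Leaving out 1 library gave 6861 to 7232 genes called, and 1566 to 1656 on the opposite strand. Library size scaling moved the median log2 change of all genes by -0.075, lowered the share of higher genes among all called from 50.8% to 43.8%, and left 3 of the 9 genes higher and 3 lower, in place of 4 and 2. The replicate block kept 7258 of the 7302 calls and changed no call of the 9 genes. For the 3 shares the block leaves sign flips of 4 pairs, too few to pass the threshold (differences -14.7, -15.4 and 9.93 points). Leaving out 1 library gave differences of -15.5 to -13.9 for YAP1, -16.2 to -14.6 for TEAD1 and 7.49 to 11.9 points for CCN1. The numbers shared by the groups are not stated to mark pairs, and 3 of 8 libraries correlated best with their own number. Depth limits ANKRD1 and CCN2.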
